A study of Mus musculus with 2 samples.

Results

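The 33 genes described here make sterols and fatty acids, and they are 33 of the 31053 genes counted in the series. They are picked out by symbol from a list of pathway enzymes and regulators. Of the 33 genes, 3 are regulators, 7 act in the mevalonate pathway, 11 act from squalene to cholesterol, 3 make the fatty acid chain, and 9 desaturate, elongate or activate fatty acids. Single cells from the lateral striatum of male C57/BL6 mice were measured by droplet RNA sequencing (Chromium, 10x Genomics) in 2 libraries. All animals had a middle cerebral artery occlusion (MCAO, a model of stroke) of 60 minutes at postnatal day 10 and were studied after 2 weeks of reperfusion. The ipsilateral library came from the occluded side and the contralateral library from the opposite side of operated animals, so neither is a sham or an untreated control. Each library pooled the striata of 3 animals, and flow cytometry selected cells that carried A2B5 (a ganglioside epitope of progenitors), O4 (a sulfatide epitope of later oligodendrocyte-lineage cells) or both. With 1 library per side, no test between the sides was possible.

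Cholesterol is built from acetyl-CoA through mevalonate, isoprenoids, squalene and lanosterol, and the enzymes of this route are controlled together by sterol regulatory element-binding proteins (SREBPs), which the protein Insig1 holds in the endoplasmic reticulum when sterols are abundant. Fatty acids start from the same acetyl-CoA, are assembled by fatty acid synthase, and are then elongated and desaturated. Myelin is rich in cholesterol and in very long-chain lipids, and oligodendrocytes make much of this cholesterol themselves while they form the sheath.

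Upstream sequences were read for these genes because the members of one route share known control elements. Most members, though not all, were higher in later stages, and a link of such elements to the levels was not tested. RefSeq windows of the GRCm38.p6 build were available for 27 of the 33 genes, and the 250 bases before each start were searched on both strands for CCAAT, the box bound by the factor NF-Y, and for TCACNCCAC, a form of the sterol regulatory element. These genes have 33 windows, since some have several starts; 15 windows held no exon base of the GENCODE M21 annotation, and those printed are among them. They are Hmgcs1 (chr13:119690101-119690350, plus strand), Mvd (chr8:122443423-122443672, minus strand), Ebp (chrX:8193513-8193762, minus strand) and Elovl7 (chr13:108214154-108214403, plus strand), each 5′ to 3′ on the strand of its gene. Capitals mark the motif matches, and ATTGG is CCAAT on the other strand.
Hmgcs1: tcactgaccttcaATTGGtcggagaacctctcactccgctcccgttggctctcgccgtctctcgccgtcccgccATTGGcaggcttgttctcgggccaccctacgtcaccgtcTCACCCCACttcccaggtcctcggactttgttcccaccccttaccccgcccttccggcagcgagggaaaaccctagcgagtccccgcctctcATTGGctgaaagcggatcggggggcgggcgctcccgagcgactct
Mvd: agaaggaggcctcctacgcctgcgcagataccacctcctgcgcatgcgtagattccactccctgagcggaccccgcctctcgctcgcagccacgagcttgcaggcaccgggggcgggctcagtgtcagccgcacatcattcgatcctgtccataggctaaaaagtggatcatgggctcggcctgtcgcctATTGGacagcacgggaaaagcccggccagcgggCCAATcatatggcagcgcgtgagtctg
Ebp: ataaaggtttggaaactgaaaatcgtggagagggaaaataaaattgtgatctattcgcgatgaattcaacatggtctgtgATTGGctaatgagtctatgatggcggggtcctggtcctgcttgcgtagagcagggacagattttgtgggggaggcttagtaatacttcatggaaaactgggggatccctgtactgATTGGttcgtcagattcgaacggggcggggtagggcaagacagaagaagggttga
Elovl7: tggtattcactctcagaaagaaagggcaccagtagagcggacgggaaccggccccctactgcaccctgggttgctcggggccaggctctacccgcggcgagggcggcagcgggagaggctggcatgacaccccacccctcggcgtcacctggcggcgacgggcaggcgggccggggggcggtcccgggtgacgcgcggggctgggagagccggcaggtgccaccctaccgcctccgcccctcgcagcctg
Hmgcs1 held 3 CCAAT boxes and 1 sterol regulatory element, Mvd and Ebp held 2 CCAAT boxes each, and Elovl7, the gene with the highest step between the first stages, held neither motif. CCAAT stood in the window of 21 of the 27 members (77.8%), against 37.5% of 27025 genes and 33.8% of all 32851 windows. By role, it stood in 9 of 9 genes of the squalene and sterol part and in 5 of 6 of the mevalonate part, but in 3 of 6 of the genes for desaturation, elongation and activation and in 1 of 3 of the fatty acid chain genes. TCACNCCAC stood in Hmgcs1 alone among the members (3.70%), against 1.22% of all 27025 genes. No match of one motif overlapped a match of the other, and in Fasn 2 CCAAT matches on opposite strands overlapped. A match describes letters in this window and was not measured as a binding site.

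Barcodes were placed in stages by fixed marker genes, none of which is a member. Those highest for Pdgfra, Cspg4 and 6 other markers are called precursor-like, those highest for Gpr17, Enpp6, Bcas1 and 8 others newly formed oligodendrocyte-like, and those highest for Mog, Mobp, Opalin and 8 others mature oligodendrocyte-like; the stage names stand for these classes and rest on RNA alone. The newly formed markers cover committed precursors as well as newly formed oligodendrocytes, so this class can hold both, and they were not separated. Of 1913 kept contralateral and 2505 kept ipsilateral barcodes, 320 and 399 were precursor, 111 and 235 newly formed and 523 and 942 mature. The labelled cell type is oligodendrocyte, but 451 contralateral and 430 ipsilateral barcodes carried neuroblast markers and 184 and 131 endothelial markers. Of barcodes whose best score was for a stage, 33, 28 and 53 were left out because a second class scored within 0.25. No barcode sequence was shared by the libraries. Levels are CPM, in which the molecules of a gene, counted by unique molecular identifiers (UMIs), are scaled to the total of a stage in a library. Pairs of levels are given with the contralateral library first. Stage totals ran from 3070761 to 28090017 UMIs, so the mature levels are the most precise. Because reads cover transcript ends, levels were not compared between genes.

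Summed mature marker levels were 32912 and 32959 CPM in the mature stage, 5453 and 4134 CPM in the newly formed stage and 2696 and 2052 CPM in precursors. In barcodes of other kinds they were 411 and 517 CPM (neuroblasts), 1160 and 1843 CPM (endothelial), 361 and 2031 CPM (astrocytes) and 3371 CPM in the 50 ipsilateral neuron barcodes. The ipsilateral neuron value was above, and the astrocyte value near, that of ipsilateral precursors. Scrublet called 1 of the 111 contralateral and 23 of the 235 ipsilateral newly formed barcodes doublets; they were kept, and values without them are given where they bear on a result.

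Most members were higher at each step of the lineage, and 20 of the 33 passed the test as higher at both. The share of all genes higher at both steps was not counted, so that count has no background. In the newly formed stage 24 of the 33 genes were higher than in precursors, 2 were lower and 7 did not pass the test, beside 25.8% of all 12754 tested genes higher and 27.4% lower. From newly formed to mature, 27 were higher, 4 lower and 2 did not pass, beside 33% of all genes higher and 31.7% lower. From precursor to mature, 31 were higher and 2 lower, beside 37.0% and 37.8% of all genes. The median log2 difference of the members was 0.67, 1.12 and 1.56 in the 3 comparisons, against -0.02, -0.01 and -0.02 over all genes. Within each library, 26 members rose and 3 fell in both at the first step, 28 rose and 4 fell in both at the second, and 31 rose and 2 fell in both from precursor to mature.

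These differences are relative to the typical gene, since the test scaled the stages with TMM factors, which center the bulk of genes. With stage totals as the scale, the median of all genes moved to -0.24, -0.55 and -0.79, and 22, 23 and 28 members were higher and 3, 5 and 2 lower; 15 of the 33 were then higher at both steps. The all-gene backgrounds of the single comparisons were then 15.5%, 16.1% and 16.2% higher and 38.2%, 56.4% and 67.3% lower, with none taken for both steps together. Lss (mature against newly formed) and Acat2 (mature against precursor) changed sign with that scale, at -0.21 and -0.15, and neither passed the test there. Mvk, Hsd17b7 and Acly also lost their second call with stage totals, Pmvk and Fads1 their first, and Tm7sf2 and Elovl5 their call from precursor to mature, while Mvd at the second step and Elovl5 at the first became lower. The fit compared 2 libraries, which are also the 2 sides, across stages (edgeR, 2 residual degrees of freedom). Its p-values measure only how much the stage steps differ between these libraries.

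**Figure D1:**
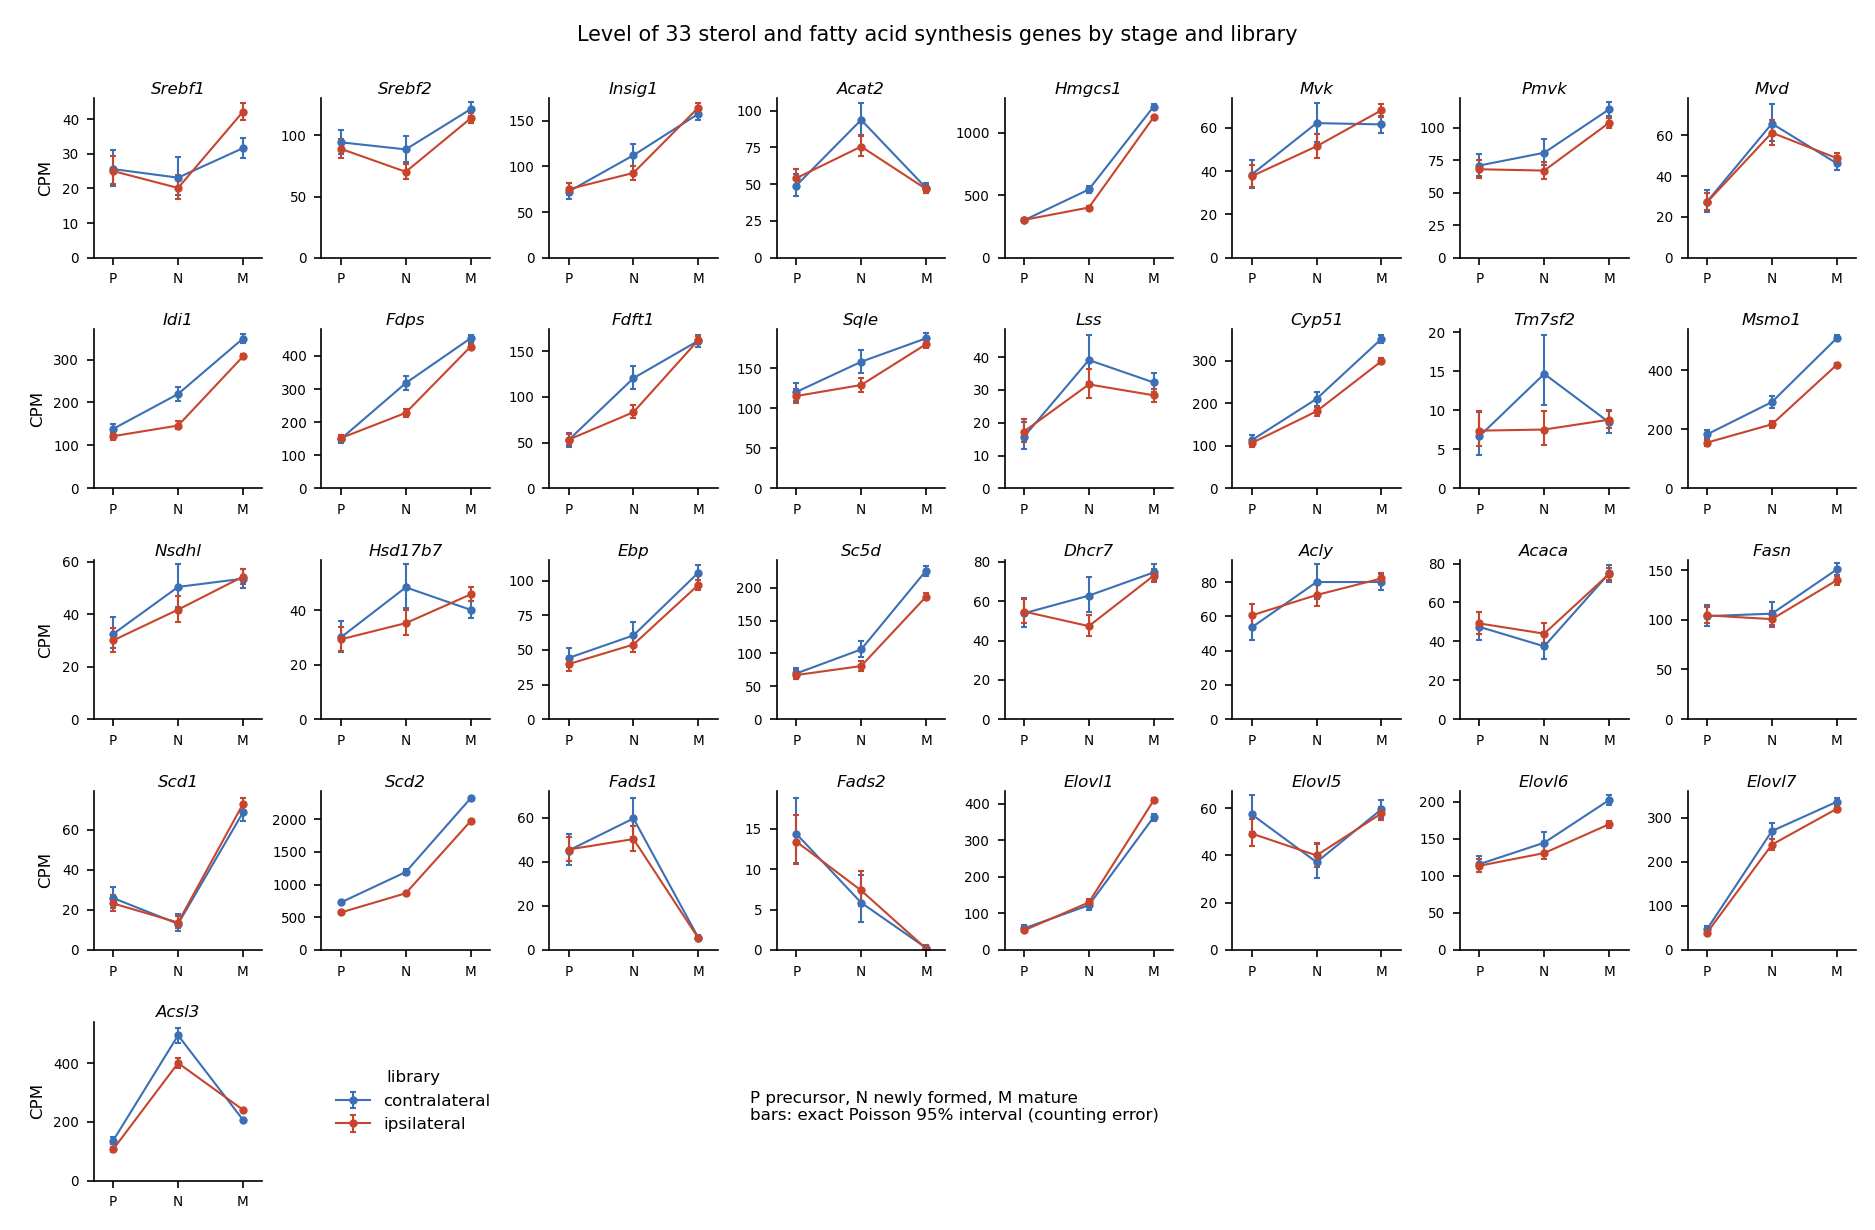
Level of each of the 33 genes (y axis, CPM of the stage total) in the precursor (P), newly formed (N) and mature (M) stages (x axis), 1 line per library, with exact Poisson 95% intervals that cover counting error only. Most lines rise to the mature stage, Acsl3, Acat2, Mvd, Lss and Fads1 are highest in the newly formed stage in both libraries, and Fads1, Fads2 and Acat2 are lowest in the mature stage.

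Among the regulators, the SREBP genes were near level on the TMM scale at the first step, and all 3 regulators were higher at the second. Srebf2, whose protein mainly drives sterol genes, was at 94.4 and 89.0 CPM in precursors, 88.6 and 70.2 CPM in the newly formed stage and 121.5 and 114.0 CPM in the mature stage. Srebf1, whose protein mainly drives fatty acid genes, was at 25.6 and 25.0, 23.1 and 20.1, and 31.7 and 42.2 CPM in the same order. Neither passed the test at the first step (log2 difference -0.01 for Srebf2 and -0.04 for Srebf1, edgeR adjusted p = 0.951 and 0.862). On the TMM scale of the test the libraries took opposite signs, while the CPM of both genes fell in both libraries. At the second step Srebf2 was higher by 1.14 (edgeR adjusted p = 2.73e-07) and Srebf1 by 1.37 (edgeR adjusted p = 4.61e-06). Insig1, the sterol-sensing retention protein and itself an SREBP target, rose at both steps, from 72.5 and 75.1 to 112.4 and 93.0 and then to 158 and 165 CPM (log2 differences 0.67 and 1.22, edgeR adjusted p = 0.000226 and 2.56e-07).

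On the TMM scale, all 7 genes of the mevalonate pathway were higher in the newly formed stage than in precursors, and 5 of the 7 rose again to the mature stage. Hmgcs1, the synthase that makes HMG-CoA, was at 298 and 301 CPM in precursors, 545 and 401 CPM in the newly formed stage and 1209 and 1124 CPM in the mature stage, and the ranges of the stages did not overlap. Its steps were 0.86 (1.12 contralateral, 0.62 ipsilateral, edgeR adjusted p = 0.000103) and 1.86 (1.70 and 2.04, edgeR adjusted p = 6.55e-08). Idi1, the isopentenyl diphosphate isomerase, went from 139 and 122 to 220 and 146 and to 349 and 307 CPM. Fdps, which makes farnesyl diphosphate, went from 149 and 152 to 318 and 228 and to 453 and 428 CPM. For both genes the newly formed value was higher in the contralateral library by more than in the other stages. Their first steps were 0.68 and 1.06 (edgeR adjusted p = 0.00034 and 2.15e-05). Their second steps were 1.42 and 1.26 (edgeR adjusted p = 2.26e-07 and 1.47e-06). Fdps shares 24.6% of its 31-base words with Gm43738, whose exons overlap it on the same strand. Idi1 shares 18.4% of its words with Gm13502, so the counts of both genes are uncertain.

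Mvd, the decarboxylase that makes isopentenyl diphosphate, had risen fully in the newly formed stage. It was at 27.5 and 27.2, 65.8 and 61.3, and 46.3 and 48.8 CPM. Its first step was 1.43 (edgeR adjusted p = 5.99e-07) and its second did not pass the test at 0.14 (edgeR adjusted p = 0.167), while with stage totals it fell by 0.41 (edgeR adjusted p = 0.00133). Acat2, the cytosolic thiolase that joins acetyl-CoA units, was highest in the newly formed stage, at 49.1 and 54.1, 93.8 and 75.6, and 47.5 and 46.7 CPM. It rose by 0.90 and then fell by 0.27 (edgeR adjusted p = 4.99e-05 and 0.0322); the second call was lost without the library term, with DESeq2, without the Scrublet calls and with stages from clusters. Acat2 shares 43.7% of its 31-base words with its neighbor Acat3, so its count is uncertain. The kinases Mvk and Pmvk rose at both steps on the TMM scale, by 0.78 and 0.29 and then by 0.77 and 1.12. The smaller first step of Pmvk did not pass with stage totals (0.07, edgeR adjusted p = 0.56).

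In the squalene and sterol part, on the TMM scale, 9 of 11 genes passed as higher in the newly formed stage and 10 of 11 at the second step. All 11 were higher in the mature stage than in precursors. Fdft1, the squalene synthase that commits the route to sterols, was at 52.8 and 53.2, 120.5 and 83.3, and 161 and 162 CPM. Its steps were 1.12 and 1.26 (edgeR adjusted p = 3.54e-05 and 1.43e-06). Fdft1 shares 14.3% of its 31-base words with Gm6781, so its count is uncertain. Sqle, the squalene epoxidase and a rate-limiting enzyme, moved less, at 120.2 and 115, 158 and 129, and 187 and 179.8 CPM, with steps of 0.49 and 0.92 (edgeR adjusted p = 0.000763 and 1.36e-06). Lss, the cyclase that makes lanosterol, rose at the first step (15.7 and 17.3 to 39.1 and 31.7 CPM, 1.27, edgeR adjusted p = 2.2e-05). Its CPM was lower again in the mature stage in both libraries, at 32.2 and 28.3, so its second call holds on the TMM scale only. The levels of these genes in the 2 libraries were close in precursors and in the mature stage and further apart between.

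The later sterol enzymes Cyp51, Msmo1, Nsdhl, Hsd17b7, Ebp and Sc5d all passed at both steps, with first steps from 0.64 (Sc5d) to 1.05 (Cyp51) and second steps from 0.65 (Hsd17b7) to 1.70 (Sc5d). Msmo1, the methylsterol monooxygenase, was at 183 and 155, 292 and 217, and 508 and 418 CPM. Dhcr7, the reductase of the last step of one branch, did not pass at the first step (53.9 and 54.8 to 62.9 and 47.3 CPM, 0.20, edgeR adjusted p = 0.19) and was higher at the second (74.7 and 73.0 CPM, 1.01, edgeR adjusted p = 4.14e-06). Tm7sf2, a sterol reductase, had 25 to 247 UMIs per library and stage and passed neither step (0.74 and 0.31, edgeR adjusted p = 0.060 and 0.29). Its exons overlap Vps51 on the same strand, and its count is uncertain.

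Of the 3 genes that make the fatty acid chain, 1 was higher at the first step and all 3 were higher at the second. Fasn, the fatty acid synthase, was at 104 and 104 CPM in precursors, 106 and 101 in the newly formed stage and 151 and 139.8 in the mature stage; it did not pass at the first step (0.21, edgeR adjusted p = 0.0564) and was higher at the second (1.04, edgeR adjusted p = 2.26e-07). Acaca, the acetyl-CoA carboxylase, was at 47.5 and 49.2, 37.5 and 44.0, and 74.9 and 74.7 CPM, so its CPM fell at the first step. On the TMM scale it was near level and then higher (-0.01 and 1.40, edgeR adjusted p = 0.973 and 6.22e-08). It shares 31.7% of its words with Gm5182, so its count is uncertain. Acly, which supplies cytosolic acetyl-CoA, differed from both: it was at 53.6 and 60.6, 80.1 and 72.5, and 80.2 and 82.2 CPM, and rose at the first step by 0.61 (edgeR adjusted p = 0.000382).

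**Figure D2:**
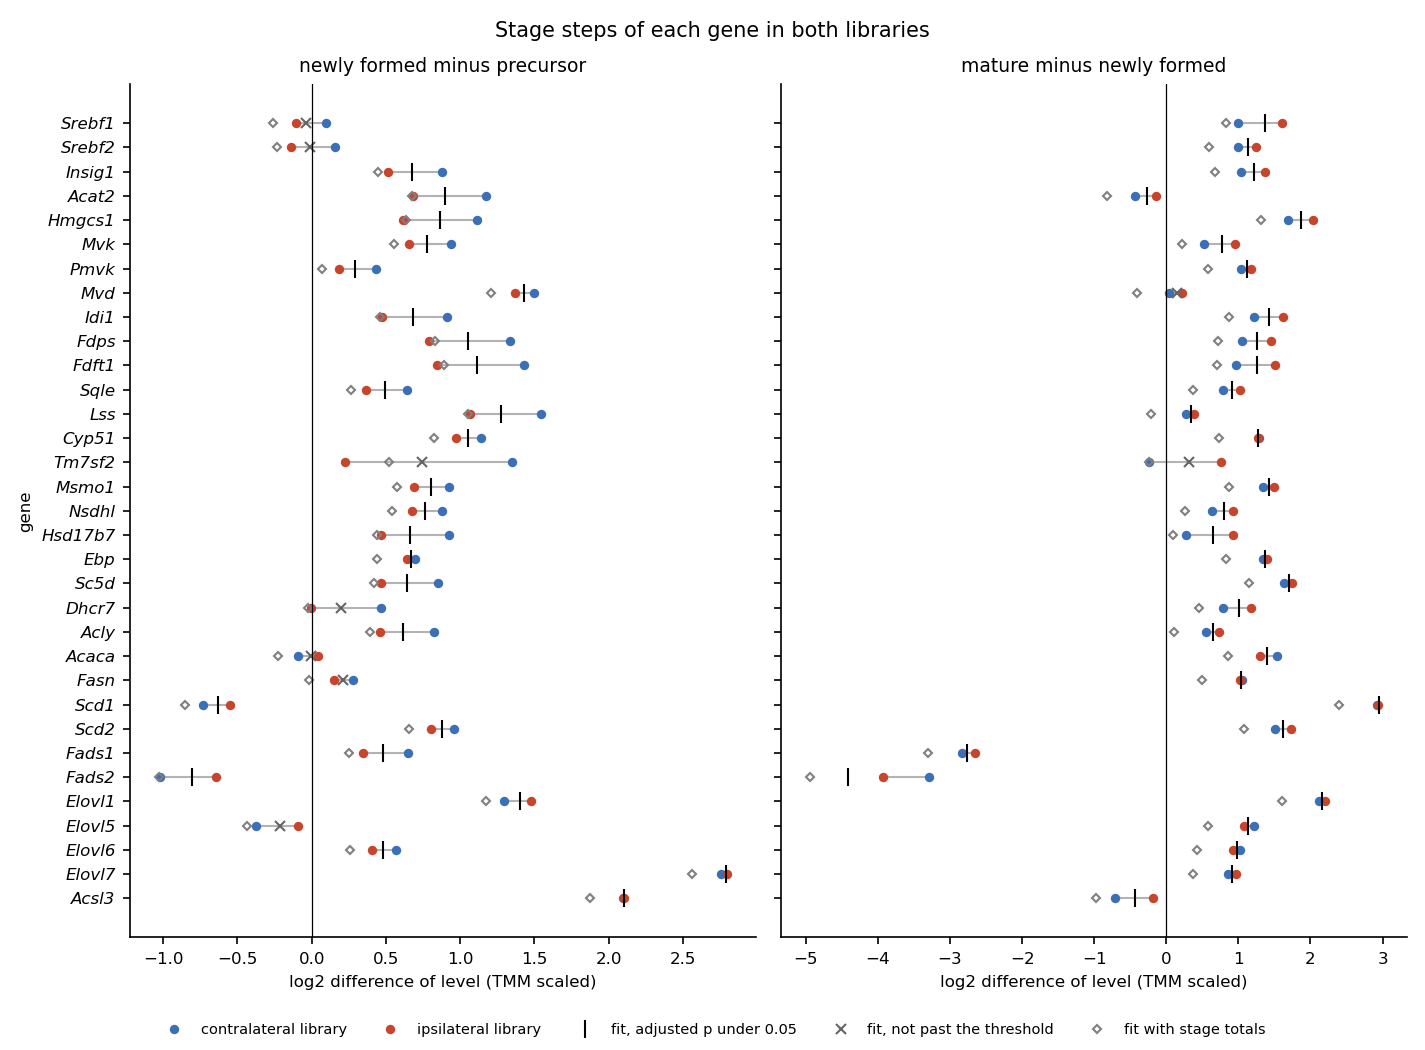
Log2 difference between successive stages (x axis) for each gene (y axis), as the value of each library (colored points), the edgeR fit (black bars where the adjusted p was under 0.05, crosses elsewhere) and the fit with stage totals (open diamonds). All 7 mevalonate genes have bars right of 0 in the left panel, and Fads1, Fads2, Acat2 and Acsl3 have bars left of 0 in the right panel.

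The desaturases, elongases and the acyl-CoA synthetase held both the highest steps and the falls, with 6 of 9 higher and 2 lower at the first step and 6 higher and 3 lower at the second. Elovl7, an elongase of saturated long chains, had the highest first step. It was at 47.2 and 39.3 CPM in precursors, 270.0 and 239 CPM in the newly formed stage and 336 and 320.4 CPM in the mature stage (2.79, edgeR adjusted p = 1.43e-09, then 0.92, edgeR adjusted p = 8.76e-07). After thinning to 5000 UMIs, 9.80% and 11.3% of precursor, 58.7% and 50.7% of newly formed and 79.3% and 80.6% of mature barcodes held an Elovl7 UMI, against 1.45% and 2.87% of neuroblasts. Exact binomial 95% intervals, for counting error only, were 6.71% to 13.7% and 8.31% to 14.9% in precursors, 48.9% to 68.1% and 44.0% to 57.3% in the newly formed stage, 75.5% to 82.7% and 77.9% to 83.1% in the mature stage, and 0.535% to 3.14% and 1.44% to 5.08% in neuroblasts. The newly formed and mature shares lay above the neuroblast share in both libraries. Endothelial barcodes, however, had shares of 37.7% and 40.3% (intervals 30.4% to 45.5% and 31.4% to 49.7%), above precursors. The ipsilateral endothelial interval overlapped the newly formed one. Endothelial shares without thinning were 51.6% and 53.4%, at median UMIs of 8326.5 and 8607, and thinning left out 17 and 12 of these barcodes. Without thinning, the shares were 22.2% and 24.1% in precursors, 83.8% and 80.4% in the newly formed stage, 99.6% and 98.5% in the mature stage and 5.10% and 6.98% in neuroblasts. The median UMIs per barcode differed between these classes: precursors had 10348 and 12596, newly formed barcodes 22903 and 22980, mature barcodes 27684 and 28594.5, and neuroblasts 10824 and 10827. Thinning left out 14 and 19 precursor, 2 and 6 newly formed, 2 and 18 mature, and 38 and 47 neuroblast barcodes.

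Acsl3, a synthetase that activates long-chain fatty acids, was highest in the newly formed stage in both libraries. It was at 137 and 107, 494 and 399.9, and 207 and 241 CPM, rising by 2.10 (edgeR adjusted p = 1.08e-07) and falling by 0.43 (edgeR adjusted p = 0.00694). Elovl1, the elongase of very long chains, rose at both steps, at 58.9 and 53.6, 122 and 130.0, and 363 and 409 CPM (1.40 and 2.16, edgeR adjusted p = 4.49e-07 and 1.32e-09). Its exons overlap Cdc20 on the other strand. Those of Acsl3 overlap Utp14b on the same strand, so the count of Acsl3 is uncertain.

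The stearoyl-CoA desaturases, which make monounsaturated fatty acids, took different courses. Scd2, the main form in brain, rose at both steps, at 728 and 574, 1193 and 868, and 2321 and 1971 CPM (0.88 and 1.62, edgeR adjusted p = 2.93e-05 and 7.39e-08). Scd1 was lower in the newly formed stage than on either side of it, at 25.9 and 23.2, 13.0 and 13.7, and 68.5 and 72.7 CPM. Its steps were -0.63 and 2.95 (edgeR adjusted p = 0.00325 and 6.08e-10), and the first was 0.43, of opposite sign, when stages were taken from clusters instead of marker scores. Only 40 and 89 UMIs of Scd1 were counted in the newly formed stage, and 1 barcode held 15.0% of the contralateral ones.

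Fads1 and Fads2, the desaturases of polyunsaturated fatty acids, were on the TMM scale the only members lower in the mature stage than in precursors. In CPM, Acat2 was also lower in both libraries, at 49.1 and 54.1 in precursors and 47.5 and 46.7 in the mature stage. Fads1 was at 45.1 and 45.5 CPM in precursors, 59.6 and 50.3 CPM in the newly formed stage and 5.57 and 5.34 CPM in the mature stage, so it rose by 0.48 (edgeR adjusted p = 0.00425) before it fell by 2.76 (edgeR adjusted p = 3.0e-09). The first call did not hold with stage totals (0.25, edgeR adjusted p = 0.077). Fads2 was at 14.4 and 13.4, 5.86 and 7.38, and 0.262 and 0.178 CPM, with only 4 and 5 UMIs in the mature stage. Its steps were -0.81 and -4.41 (edgeR adjusted p = 0.0273 and 1.78e-06), and the first call was lost with DESeq2 and without the Scrublet calls. Of the other elongases, Elovl6 rose at both steps (0.48 and 0.98), and Elovl5, which acts on polyunsaturated chains, passed only the second (57.3 and 49.2, 37.1 and 40.0, 59.4 and 57.7 CPM; -0.21 and 1.13, edgeR adjusted p = 0.12 and 6.03e-07).

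Other genes of lipid metabolism, which are not members, were counted beside the same all-gene shares, 25.8% higher and 27.4% lower at the first step and 33% and 31.7% at the second. Of 17 tested fatty acid genes outside the members, 7 were higher and 2 lower at the first step, and 6 higher and 5 lower at the second. The acyl-CoA synthetases differed among themselves: Acsl1 rose at both steps, by 1.67 at the second, while Acsl6 fell at both, with -1.64 and -2.70, and Acsl5 fell by 3.92 at the second. Of 10 tested genes of sterol storage, transport and LXR control, 4 were higher and 2 lower at the first step, and 5 higher and 3 lower at the second. Abcg1, a sterol exporter, was lowest in the newly formed stage (78.4 and 65.2, 26.4 and 19.7, 81.9 and 83.1 CPM), and Npc2, which moves cholesterol out of lysosomes, rose by 1.83 at the second step.

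Within a stage, the members rose along the order given by the markers. Each stage was divided at the median of its mature minus precursor marker score into an earlier and a later section. In the newly formed stage the summed members were at 3095 and 2815 CPM in the earlier section and 6558 and 5105 CPM in the later one, against 3120 and 2859 CPM in all precursors. The earlier section was thus no higher than precursors, while the later one was higher in both libraries. The mevalonate genes went from 639 and 620 to 1792 and 1290 CPM between these sections, and the squalene and sterol genes from 623 and 602 to 1458 and 1103 CPM. All precursors had 772 and 762 CPM of the mevalonate genes and 722 and 676 CPM of the squalene and sterol genes. In CPM, both sums were thus lower than in precursors in the earlier section and higher only in the later one. Acsl3 and Elovl7 were already above precursors in the earlier section, at 299.9 and 251 CPM and at 143 and 109 CPM. Mature marker sums rose in parallel, from 406 and 533 to 8206 and 6408 CPM, and precursors showed the same at a lower level, with members at 2624 and 2449 and then 3597 and 3106 CPM and mature markers at 386 and 493 and then 4919 and 2991 CPM. How much of the members' rise came from RNA of mature cells in these barcodes was not tested.

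**Figure D3:**
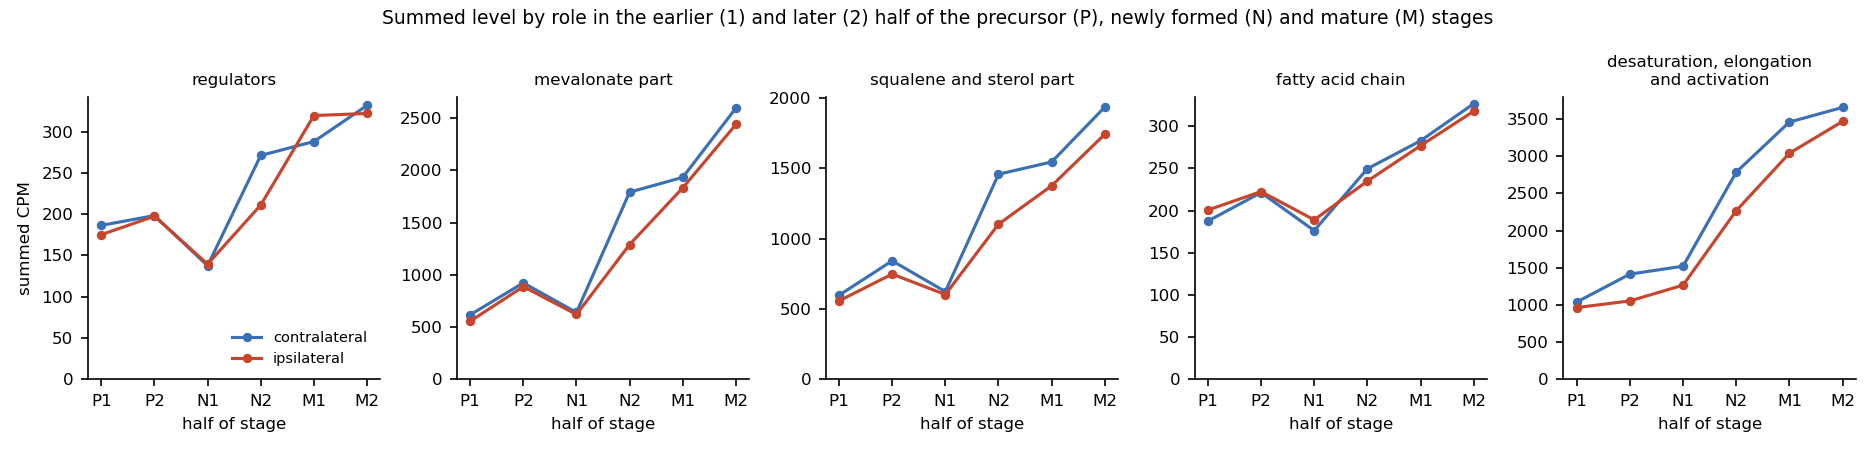
Summed CPM of the members by role (y axis) in the earlier (labels ending in 1) and later (labels ending in 2) section of the precursor (P), newly formed (N) and mature (M) stages (x axis), 1 line per library. The mevalonate and sterol lines drop from the later precursor section to the earlier newly formed one and then rise, and in the later newly formed section the contralateral line lies above the ipsilateral line.

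Single barcodes varied widely within each stage. The 33 genes together made up a median of 24.8 and 23.2 UMIs per 10000 in precursors, 28.7 and 25.9 in the newly formed stage and 78.3 and 70.1 in the mature stage. The 90th percentile of newly formed barcodes was 95.1 and 69.3 UMIs per 10000, above the mature median in the contralateral library and just under it in the ipsilateral one. In precursors it was 44.5 and 40.0. Sums over the 33 genes weigh each gene by its count, and Scd2 and Hmgcs1 weighed most in the mature stage. Of 125268 and 211915 mature member UMIs, Scd2 gave 35406 and 55365 and Hmgcs1 18442 and 31566.

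**Figure D4:**
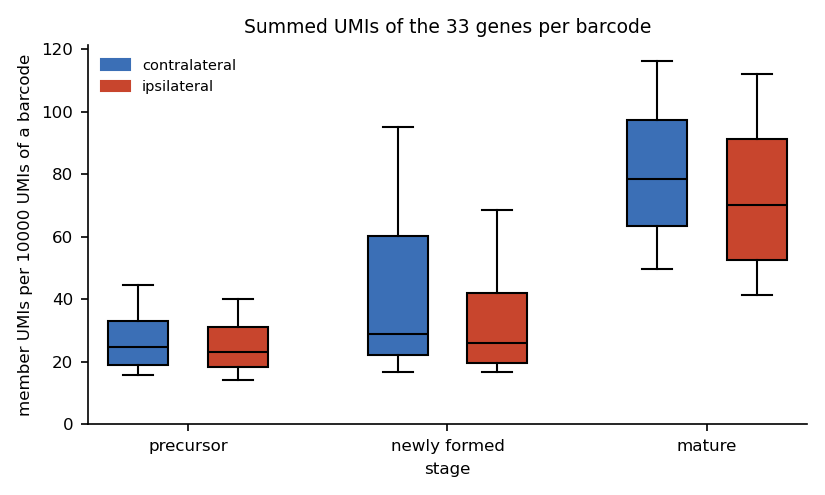
Summed UMIs of the 33 genes per 10000 UMIs of a barcode (y axis) by stage and library (x axis), with boxes for the middle of the barcodes, lines at the medians and whiskers to the last barcodes within the 10th and 90th percentiles. The newly formed boxes reach from precursor values toward the mature ones, and their 90th percentile is 95.1 contralaterally and 69.3 ipsilaterally.

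Among the 3 stages, the members differed most between the sides in the newly formed stage. There, 28 of the 33 genes were lower in the ipsilateral library, beside 5640 of all 11400 measured genes. The median log2 ratio, ipsilateral over contralateral, was -0.25 for the members against 0.00 over all genes. Ratios were taken after adding 5 CPM to both levels, for genes with at least 20 UMIs, and a ratio past 0.32 in either direction, was counted. Of the members, 10 were under -0.32, beside 7.05% of all genes, and 0 were above 0.32, beside 7.28%. All 7 mevalonate genes, all 11 squalene and sterol genes and all 3 regulators had ratios under 0, with medians of -0.29, -0.37 and -0.26, while the fatty acid chain genes had a median of -0.07. The summed mevalonate and sterol genes were at 2549 CPM contralaterally and 1939 CPM ipsilaterally, 23.9% lower. This was not particular to the stage, since in astrocytes they were at 2534 and 1856 CPM and in neuroblasts at 1185 and 1013 CPM. They were also lower ipsilaterally in the mature stage (4030 and 3679 CPM) and in precursors (1494 and 1437 CPM).

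The 10 genes under -0.32 were Idi1, Fdps, Hmgcs1, Fdft1, Tm7sf2, Msmo1, Hsd17b7, Sc5d, Dhcr7 and Scd2. Idi1 was at 220 and 146 CPM (log2 ratio -0.57, counting interval -0.73 to -0.44), Fdft1 at 120.5 and 83.3 CPM (-0.51, -0.73 to -0.34), and Fdps at 318 and 228 CPM (-0.47, -0.60 to -0.36). Scd2 was at 1193 and 868 CPM (-0.46, -0.52 to -0.40) and Hmgcs1 at 545 and 401 CPM (-0.44, -0.53 to -0.35). For these 5 genes the intervals of the ratio lay under 0, but they cover counting error only and not the spread between animals. The intervals were taken without the added 5 CPM, so they are not centered on the printed ratios. Tm7sf2 alone was past 1.5-fold lower (beside 0.947% of all genes) and 0 members were past 1.5-fold higher (beside 1.35%). Tm7sf2 was at 14.7 and 7.53 CPM from 45 and 49 UMIs. The 5 members with ratios above 0 were Acaca, Fads2, Elovl5, Elovl1 and Scd1, at 0.05 to 0.21, and each of their intervals held 0.

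The markers of maturation moved in the same direction as the members: all 11 mature markers were lower ipsilaterally (median -0.30, none at 0), with summed levels of 5453 and 4134 CPM, whereas the 11 newly formed markers were split 5 above and 6 below (8540 and 9124 CPM). Astrocyte markers, at 106 and 76.5 CPM, were under 0 for all 5 measured. Without the Scrublet calls the members' median was -0.30 and 31 of 33 were under 0. One barcode held between 5.24% and 15.0% of each member's UMIs in the contralateral newly formed stage, and with each barcode weighted equally the median was -0.19.

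The difference varied with the position of barcodes within the stage. In the earlier section, with 56 contralateral and 117 ipsilateral barcodes, the median ratio was -0.017, with 19 members under 0 and 14 above. In the later section, with 55 and 118 barcodes, it was -0.31, with 30 under 0, among them all 7 mevalonate and all 11 sterol genes. Over all genes, 4665 of 9952 were under 0 in the earlier section and 5535 of 10535 in the later one. Idi1 was at 89.5 and 93.7 CPM in the earlier section and 291 and 180 CPM in the later one.

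The later section also differed in mature markers between the libraries, so the stage was further divided into 4 bins of the same score, a step added after these values were seen. In order, the members' median ratio was 0.35, -0.25, -0.61 and -0.11, with 5 of 31, 23 of 29, 29 of 31 and 22 of 32 measured members under 0. Over all genes, 4263 of 8756, 4104 of 8222, 4433 of 8896 and 5143 of 9635 were under 0. The bins held 24 to 32 contralateral and 54 to 63 ipsilateral barcodes. In the third bin, where the ratio was lowest, mature markers summed to 3640 CPM contralaterally and 722 CPM ipsilaterally. Precursor markers there summed to 1100 and 674 CPM. In the fourth, where mature markers were alike at 10472 and 10699 CPM, the members were at 6857 and 6281 CPM. In the first, mature markers were at 460 and 522 CPM and the members at 2423 and 2818 CPM. In the second, mature markers were higher ipsilaterally (372 and 547 CPM) and the members lower (3519 and 2811 CPM). The equal-weight mean over the bins gave a median of -0.20.

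**Figure D5:**
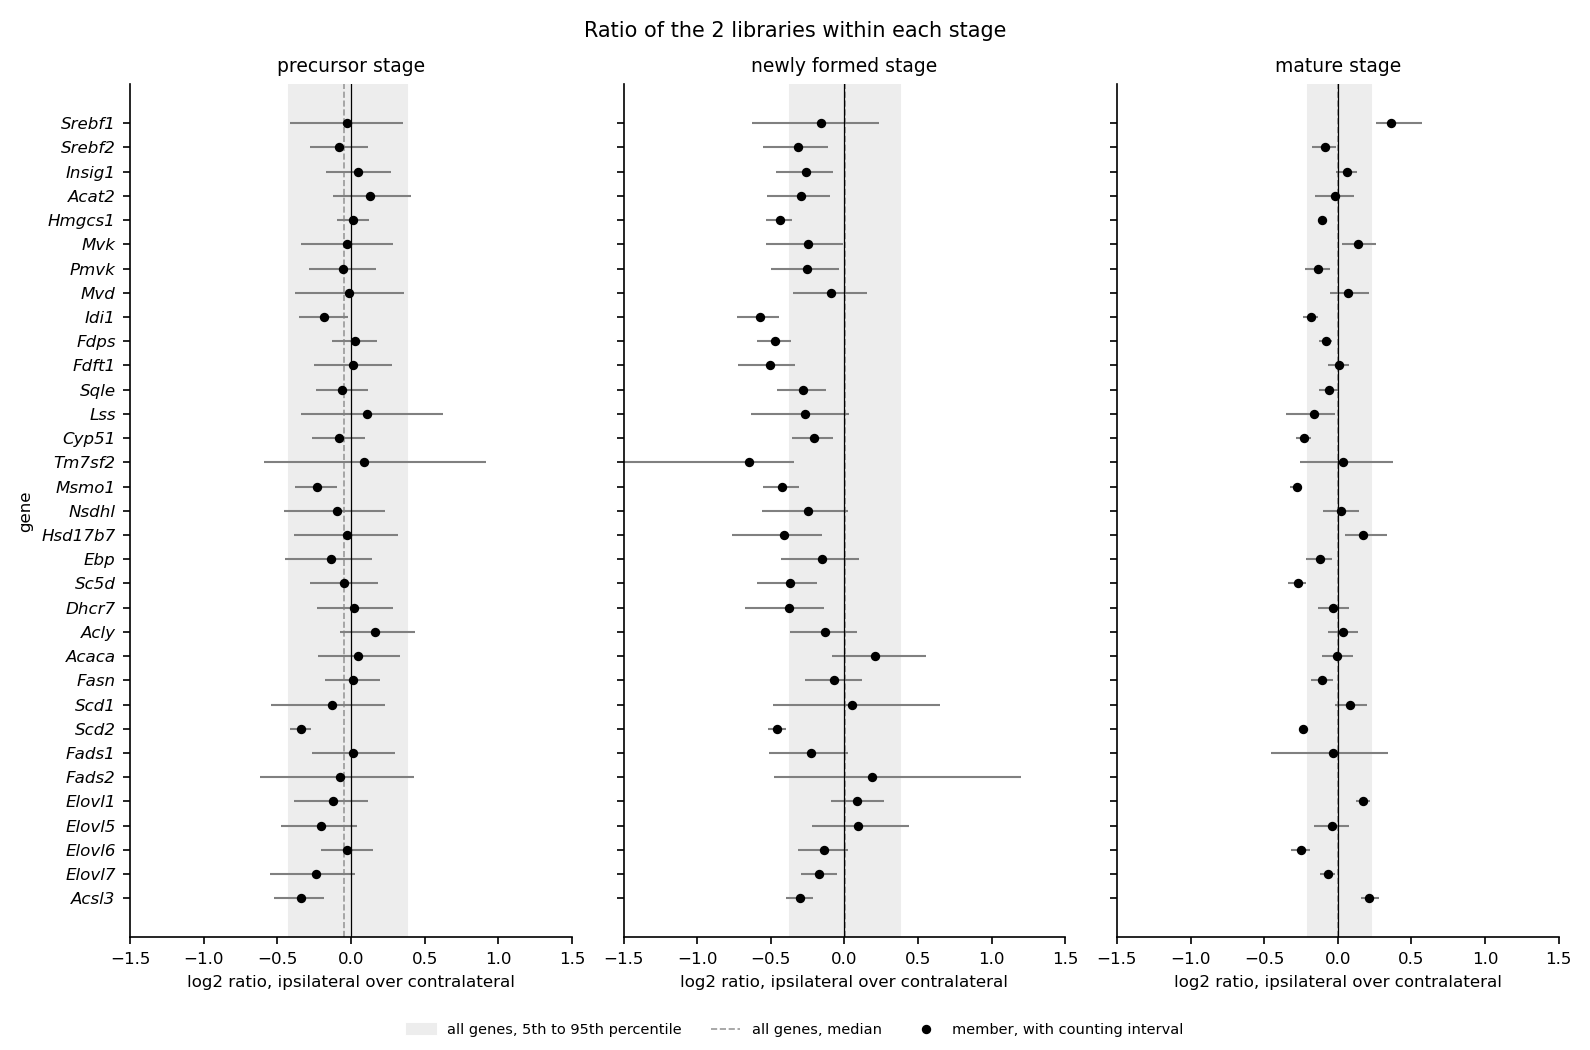
Log2 ratio of levels, ipsilateral over contralateral (x axis), for each gene (y axis) in the precursor, newly formed and mature stages, with counting intervals as lines, the 5th to 95th percentile of all genes in grey and their median dashed. In the newly formed panel 28 of 33 points lie left of 0, and in the mature panel Srebf1 lies furthest right. The lower end of the Tm7sf2 interval runs past the edge of the newly formed panel, and Fads2 is not drawn in the mature panel.

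In precursors the members' median ratio was close to that of all genes. It was -0.03 against -0.05 over all genes, and 21 of 33 were under 0, beside 7212 of 12293 genes. Of the members, 2 were under -0.32 (beside 10.5% of all genes) and 0 above 0.32 (beside 7.02%). None was past 1.5-fold lower (beside 1.29%) or higher (beside 1.38%). The 2 were Scd2, at 728 and 574 CPM (-0.34, counting interval -0.42 to -0.27), and Acsl3, at 137 and 107 CPM (-0.34, -0.52 to -0.18). Elovl7 and Msmo1 followed, at -0.24 and -0.23. Mature markers were lower ipsilaterally for 8 of 11 in this stage (median -0.32). The 12 members above 0 were Insig1, Acat2, Hmgcs1, Fdps, Fdft1, Lss, Tm7sf2, Dhcr7, Acly, Acaca, Fasn and Fads1, none above 0.16.

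In the mature stage, the most deeply counted, the members' median ratio was -0.04 against 0.00 over all genes. Of the 32 measured, 20 were under 0, beside 6209 of 12428 genes, and Fads2 had under 20 UMIs. No member was under -0.32, beside 1.03% of all genes, and 1 was above 0.32, beside 2.11%. None was past 1.5-fold lower, beside 0.145%, or higher, beside 0.499%. That gene was Srebf1, at 31.7 CPM (483 UMIs) and 42.2 CPM (1185 UMIs), a log2 ratio of 0.36 with a counting interval of 0.26 to 0.57. It was higher in the earlier section of the stage by 0.41 and in the later one by 0.32, and by 0.27 without barcodes that held a UMI of C4b or Serpina3n, genes of reactive oligodendrocytes. Srebf2, in contrast, was at 122 and 114 CPM (-0.09). The 3 genes furthest under 0 were Msmo1 (508 and 418 CPM, -0.28), Sc5d (226 and 186 CPM, -0.27) and Elovl6 (202 and 169 CPM, -0.25), and their counting intervals lay under 0. Scd2 (-0.24), Cyp51 (-0.23) and Idi1 (-0.18) followed, also with intervals under 0. The intervals of Lss, Pmvk, Ebp, Hmgcs1, Fasn, Srebf2, Fdps and Elovl7, whose ratios were nearer 0, lay under 0 as well. Together the members were at 8210 CPM contralaterally and 7544 CPM ipsilaterally. Among the members above 0, Acsl3 (0.21), Hsd17b7 (0.17), Elovl1 (0.17) and Mvk (0.13) had intervals that excluded 0, but Hsd17b7 was at 0.40 in the earlier section of the stage and -0.050 in the later one. The summed mature markers were alike on both sides in this stage, at 32912 and 32959 CPM. One cluster of mature barcodes held 85 ipsilateral and 0 contralateral barcodes, and its part in the ratios was not tested.

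Outside the oligodendrocyte stages, astrocytes held summed members between the levels of precursors and mature cells. Their sum was 5051 and 4419 CPM in 104 and 109 astrocyte barcodes, 1989 and 1779 CPM in neuroblasts and 1157 and 1187 CPM in endothelial barcodes. In astrocytes Srebf1 (126 and 112 CPM), Fads1 (112 and 121 CPM), Fads2 (35.4 and 37.1 CPM), Elovl5 (110.5 and 92.0 CPM) and Acsl3 (693 and 679 CPM) were above all 3 oligodendrocyte stages in both libraries. Elovl7 was at 2.59 and 20.2 CPM in astrocytes, with 3 and 25 UMIs, while endothelial barcodes had 110.4 and 114 CPM. In astrocytes 25 of the 33 members were lower ipsilaterally (median -0.17), beside 49.4% of 9910 measured genes (median 0.0044), and the mevalonate and sterol genes summed to 2534 and 1856 CPM; Msmo1 was at 641 and 396 CPM and Hmgcs1 at 457 and 299 CPM. Mature marker sums in these astrocyte barcodes were 361 and 2031 CPM, and their part in the ratio was not tested.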

How the data were processed

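The deposited values were UMI counts per gene and barcode. Per the submitters' processing notes, the authors used Cell Ranger 3.1.0 and mm10, the mouse genome build. Annotation and strand setting were not given in the sources. Counts of members whose exons overlap another gene, among them Fdps, Acsl3, Tm7sf2, Srebf1, Elovl1, Fdft1 and Cyp51, are therefore uncertain. The libraries held 2066 barcodes with 36063045 UMIs (contralateral) and 2775 with 54788795 (ipsilateral). Barcodes with at least 500 genes and at most 15% mitochondrial UMIs were kept. Each was scored by the mean standardized log level of fixed markers of 11 classes and assigned where the best score was at least 0.5 and led by at least 0.25. UMIs were summed per library and stage. Stage steps were fitted with edgeR 4.0.16 (quasi-likelihood test, stage and library terms, TMM, 6 sums) over 12754 genes, with Benjamini-Hochberg adjustment and a threshold of 0.05. The library term pairs the stages of a library, which come from the same pooled animals. The sides were compared without a test. Levels have exact Poisson 95% intervals. Counting intervals of a ratio are exact binomial 95% intervals on the split of a gene's UMIs between the libraries. They were taken without the added 5 CPM, so they are not centered on the printed ratio. The scripts were tested on simulated data. All 33 members are accounted for. Given in full were a fixed set by role, the 5 members with the largest difference per step, the 4 with the largest ratio per stage (at least 50 UMIs) and those going against most members. Members and lists were chosen with earlier results of these data known. Alternatives included DESeq2 1.42.0, other scalings, filters and stage assignments, and doublet removal with Scrublet (scanpy 1.11.5); stage totals and the 4 bins were added after seeing the data. Promoter windows came from RefSeq. A list of other sterol genes is not reported here.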

Additional observations from a re-analysis of the deposited data

Results flagged for a closer look

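The ratio of the libraries had opposite signs in different stages for 3 members, with counting intervals that excluded 0 in each. Mvk, the mevalonate kinase, had a log2 ratio, ipsilateral over contralateral, of 0.13 in the mature stage and -0.25 in the newly formed stage, but 0.21 in the earlier and -0.36 in the later section of the newly formed stage. Hsd17b7, a sterol reductase, had 0.17 in the mature stage and -0.41 in the newly formed stage, but 0.40 in the earlier and -0.050 in the later section of the mature stage. Acsl3, the acyl-CoA synthetase, had 0.21 in the mature stage, -0.34 in precursors and -0.30 in the newly formed stage. With 1 library per side, the difference between the stages was not tested.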

How the results depend on the processing

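Under the alternatives, 22 to 28 members were higher at the first step, 23 to 27 at the second and 28 to 31 from precursor to mature. Without the replicate block (the library term), 23, 26 and 31 were higher, and the medians were 0.69, 1.12 and 1.56; Pmvk lost its call at the first step and Acat2 and Lss theirs at the second. Only 1 member was lower at the first step with DESeq2, without the Scrublet calls and with stages from clusters. With clusters, 2 were lower at the second step, the median was 0.97 there and 1.63 from precursor to mature, and the first step of Scd1 was 0.43. With stage totals, added after seeing the data, these medians were 0.57 and 0.79, Lss was at -0.21 at the second step and Acat2 at -0.15 from precursor to mature. With no margin and a margin of 0.5 between scores, the median from precursor to mature was 1.49 and 1.64. Values of 1 library alone, which have no test, gave medians of 0.47 to 0.88, 1.0 to 1.17 and 1.51 to 1.59. In the newly formed stage, the count of members under -0.32 ran from 4 to 15, with 15 when the Scrublet calls were left out. In precursors it was 1 with 20 CPM added, a margin of 0.5, clusters or barcodes with a microglia marker left out; 0 with TMM factors between libraries, equal weights, no filter, a stricter filter or no margin; and 4 without the Scrublet calls and in either section. With no margin, 12 precursor ratios were under 0. The earlier newly formed section gave a median of -0.017, 4 members under -0.32 and 0.063 for Idi1, and in the earlier mature section 1 member was under -0.32. The cause of these changes was not tested. Newly formed levels rest on the smallest totals, and with 1 pool per side neither animals nor litters can be told apart from the side.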
